A study of Mus musculus with 12 samples.

Results

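Class I molecules of the major histocompatibility complex (MHC) present peptides from inside the cell to cytotoxic T cells. Their expression is described here through 7 genes picked by symbol (B2m, H2-D1, H2-K1, Tap1, Tap2, Tapbp and Nlrc5) out of the 31053 genes that the count matrices list. The samples were sorted brain myeloid cells, mostly microglia, from 12 male C57BL/6J mice at postnatal day 90, with 1 animal per library and 3 animals per preparation. Whole brains were dissociated either by cold Dounce homogenization (DNC) or with warm enzymes (ENZ), in buffers that lacked inhibitors of transcription and translation (NONE) or contained them (INHIB), which gave the Dounce groups DNC-NONE and DNC-INHIB and the enzymatic groups ENZ-NONE and ENZ-INHIB. Cells of every group were sorted for live cells carrying both CD45 and CD11b. The study asked which of these preparations alter the transcriptome of the cells. A further comparison was made inside each library, between interferon-responsive microglia and all other microglia.

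As background, peptides are cut in the cytosol by proteasomes and moved into the endoplasmic reticulum by the transporter that Tap1 and Tap2 encode. Tapasin, the product of Tapbp, bridges that transporter to empty heavy chains, which H2-K1 and H2-D1 encode and which fold together with beta-2 microglobulin, the product of B2m. Nlrc5 encodes a transcriptional coactivator of class I genes. Interferons raise the expression of this pathway in most cell types, and microglia that carry an interferon program occur at low frequency in the healthy brain.

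Of the 7 genes, 5 lie on chromosome 17 (coordinates in GRCm38, GENCODE annotation). H2-K1 spans chr17:33996017-34000347 on the minus strand, and the other 4 are on the plus strand: Tapbp at chr17:33915899-33929292, Tap1 at chr17:34187553-34197225, Tap2 at chr17:34203527-34216321 and H2-D1 at chr17:35262730-35267499. Tap1 and Tap2 are separated by 6302 bases. B2m lies at chr2:122147686-122153083 and Nlrc5 at chr8:94434356-94527272, both on the plus strand. Tap1 overlaps the immunoproteasome gene Psmb9 on the opposite strand, Tapbp overlaps Zbtb22 on its own strand, and B2m, Tap2 and Nlrc5 also overlap other annotated genes. How the counting treated strand is not given in the sources used here, so counts of overlapping genes carry that uncertainty. Near the 3' end, where the assay reads, 43 of the 451 possible 50-base words in the last 500 bases of the longest H2-D1 transcript also occur in other genes (9.53%), against 2 of 451 for H2-K1 and 0 of 451 for each of the other 5. Reads falling in shared words can be lost or misassigned.

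RefSeq promoter windows (GRCm38) matched 5 of the 7 genes, all but Tap2 and Nlrc5. B2m, H2-K1 and H2-D1 are shown as genes called higher in interferon-responsive cells, as described further on. Tap1 and Tapbp were called higher too, but their windows are not printed. B2m and H2-K1 are printed over the bases upstream of the annotated start, 5′ to 3′ on the strand of the gene, with capitals at the letters of 3 motifs explained after the sequences. The B2m window is chr2:122147437-122147685 and the H2-K1 window is chr17:34000348-34000597.
B2m: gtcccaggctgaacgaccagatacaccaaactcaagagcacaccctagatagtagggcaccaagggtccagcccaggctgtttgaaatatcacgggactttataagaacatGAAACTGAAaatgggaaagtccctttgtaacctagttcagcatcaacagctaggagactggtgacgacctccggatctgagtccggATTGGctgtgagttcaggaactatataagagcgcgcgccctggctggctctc
H2-K1: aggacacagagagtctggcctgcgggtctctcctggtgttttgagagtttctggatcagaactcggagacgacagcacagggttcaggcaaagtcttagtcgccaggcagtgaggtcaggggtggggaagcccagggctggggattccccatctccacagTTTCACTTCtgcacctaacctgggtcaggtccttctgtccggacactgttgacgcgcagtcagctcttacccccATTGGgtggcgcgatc

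The motif GAAANNGAA, letters from the core of the interferon-stimulated response element, was searched on both strands of the 250 bases upstream of each start. It occurred in 7.15% of 32536 distinct mouse promoter windows and, among the 5 windows of the set, in B2m alone, at -139 to -131 from the start. TTCNNNGAA, the STAT dimer element, occurred in 7.04% of windows and in 0 of the 5. CCAAT, read as ATTGG where it lies on the opposite strand, occurred in 33.8% of windows and in all 5. After these windows were read, the related arrangement GAANNGAAA was added, which can overlap GAAANNGAA and occurred in 6.35% of windows. It was present on the opposite strand, as TTTCACTTC, in H2-K1 at -90 to -82 and in H2-D1 at -150 to -142, counted from the RefSeq starts. The RefSeq start of H2-D1, 35263094, lies inside the GENCODE gene given above, so this stretch of H2-D1 is upstream of the RefSeq start and within the GENCODE gene. The RefSeq start of Tapbp, 33919478, lies inside its GENCODE gene as well. The added motif was absent from the windows of B2m, Tap1 and Tapbp. The 30 bases around the added motif in H2-D1 (chr17:35262931-35262960) and H2-K1 (chr17:34000421-34000450) matched at 29 of 30 positions. The longest run shared by both windows was 47 bases. Both 30-base stretches are printed to show this likeness, with the motif in capitals.
H2-D1: cccatctcctcagTTTCACTTCtgcaccta
H2-K1: cccatctccacagTTTCACTTCtgcaccta
The windows of Tap1 and Psmb9, genes that start 226 bases apart on opposite strands, share 275 of their 300 bases. A match is a description of the letters and not a binding site.

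Values are unique molecular identifiers (UMIs), which count captured transcripts, and levels are given as CPM, the UMI counts of a gene scaled to counts per 1e6 UMIs summed over the kept cells of a library. Of 28426 deposited cells with 33742845 UMIs, 18827 were kept, between 854 and 2185 per library with 1061021 to 3233159 UMIs. Of the kept cells, 93.1% to 98.2% per library were in clusters with microglia markers and were called microglia-like. The lowest of these shares was in DNC-NONE replicate 2, where 4.92% of cells were border macrophage-like. The 7 genes took 115192 UMIs in all, between 0.370% and 0.475% of the kept UMIs of a library. Between 0 and 12 barcodes of kept cells were shared by any pair of libraries.

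All 6 well-counted genes of the set were expressed at closely similar levels in the 4 preparations, and none passed the test in any of the 6 pairwise comparisons of preparations. B2m, the common light chain, was detected in most cells and was the member with the largest difference between preparation means. Levels of B2m were 2263, 2157 and 2713 CPM in DNC-NONE replicates 1, 2 and 3, and 2007, 2575 and 2782 CPM in DNC-INHIB replicates 4, 5 and 6. They were 2291, 2603 and 2990.3 CPM in ENZ-NONE replicates 4, 5 and 6, and 2327, 2963 and 2923 CPM in ENZ-INHIB replicates 1, 2 and 3. The means ordered from DNC-NONE (2378 ± 295 CPM, SD, n = 3) through DNC-INHIB (2455 ± 401) and ENZ-NONE (2628 ± 351) to ENZ-INHIB (2737 ± 356), and each pair of neighbours overlapped. In the fit without batch, ENZ-INHIB against DNC-NONE gave the largest difference, a log2 fold change of 0.21 (SE 0.16, edgeR quasi-likelihood adjusted p = 0.724, 95% interval -0.14 to 0.57). A B2m difference with batch in the fit is given further on. Per cell, B2m gave 2.68 to 4.72 UMIs, and after thinning every cell to 1000 UMIs it was detected in 82.4% to 92.4% of the cells of a library.

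The heavy chain genes overlapped between preparations as much. Over all kept cells, the means of H2-D1 ran in the opposite order, from ENZ-INHIB at the lowest to DNC-NONE at the highest. H2-D1 levels were 1010.1, 1203 and 990.2 CPM in DNC-NONE, 986, 925 and 1194 CPM in DNC-INHIB, 875, 1014 and 1049.5 CPM in ENZ-NONE, and 988, 1065 and 826 CPM in ENZ-INHIB. Its largest difference was a log2 fold change of -0.14 in ENZ-INHIB against DNC-NONE (SE 0.11, edgeR adjusted p = 0.730). The highest library, DNC-NONE replicate 2, was the one with the largest share of border macrophage-like cells. Its level over microglia-like cells alone was 1027 CPM, within the range of the other libraries (773 to 1086 CPM). Preparation means over microglia-like cells were 937 CPM in DNC-NONE, 954 in DNC-INHIB, 925 in ENZ-NONE and 907 in ENZ-INHIB. DNC-INHIB was then the highest. H2-K1 levels were 230.1, 288 and 242 CPM in DNC-NONE, 228, 247 and 271 CPM in DNC-INHIB, 216, 239 and 265 CPM in ENZ-NONE, and 271, 234 and 225 CPM in ENZ-INHIB. Log2 fold changes of H2-K1 stayed between -0.04 and 0.02 in the 6 comparisons. After thinning, a median of 53.0% of cells per library held a UMI of H2-D1 and 19.6% one of H2-K1.

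The transporter and loading genes were equally level. Tap1 was at 25.2, 37.7 and 33.9 CPM in DNC-NONE, 28.5, 28.5 and 34.6 CPM in DNC-INHIB, 22.5, 29.3 and 34.1 CPM in ENZ-NONE, and 37.2, 31.7 and 26.1 CPM in ENZ-INHIB, with 40 to 112 UMIs behind each value. Tap2 was at 104, 144 and 129 CPM in DNC-NONE, 127, 128 and 111 CPM in DNC-INHIB, 112, 104 and 115 CPM in ENZ-NONE, and 116, 122 and 104 CPM in ENZ-INHIB. Both transporter genes ranged within their replicates as widely as between preparations. Tapbp was the steadiest member, between 268 and 316 CPM in the 12 libraries, a coefficient of variation of 4.41% against 13.1% for B2m, 11.0% for H2-D1, 9.13% for H2-K1, 15.7% for Tap1 and 10.5% for Tap2.

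Nlrc5 was near the limit of detection. It had 4, 0 and 0 UMIs in DNC-NONE replicates 1, 2 and 3, 3, 5 and 5 in DNC-INHIB, 6, 0 and 2 in ENZ-NONE, and 5, 2 and 1 in ENZ-INHIB. The 33 UMIs in all are too few for a test, and a library with a count of 0 could still hold up to 2.83 CPM in DNC-NONE replicate 2, 1.67 CPM in DNC-NONE replicate 3 and 1.95 CPM in ENZ-NONE replicate 5. Pooled over libraries, 0.0978% of DNC-NONE cells (95% exact interval 0.0267% to 0.250%) and 0.229% of DNC-INHIB cells (0.122% to 0.391%) held a UMI, a counting error only.

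**Figure D1:**
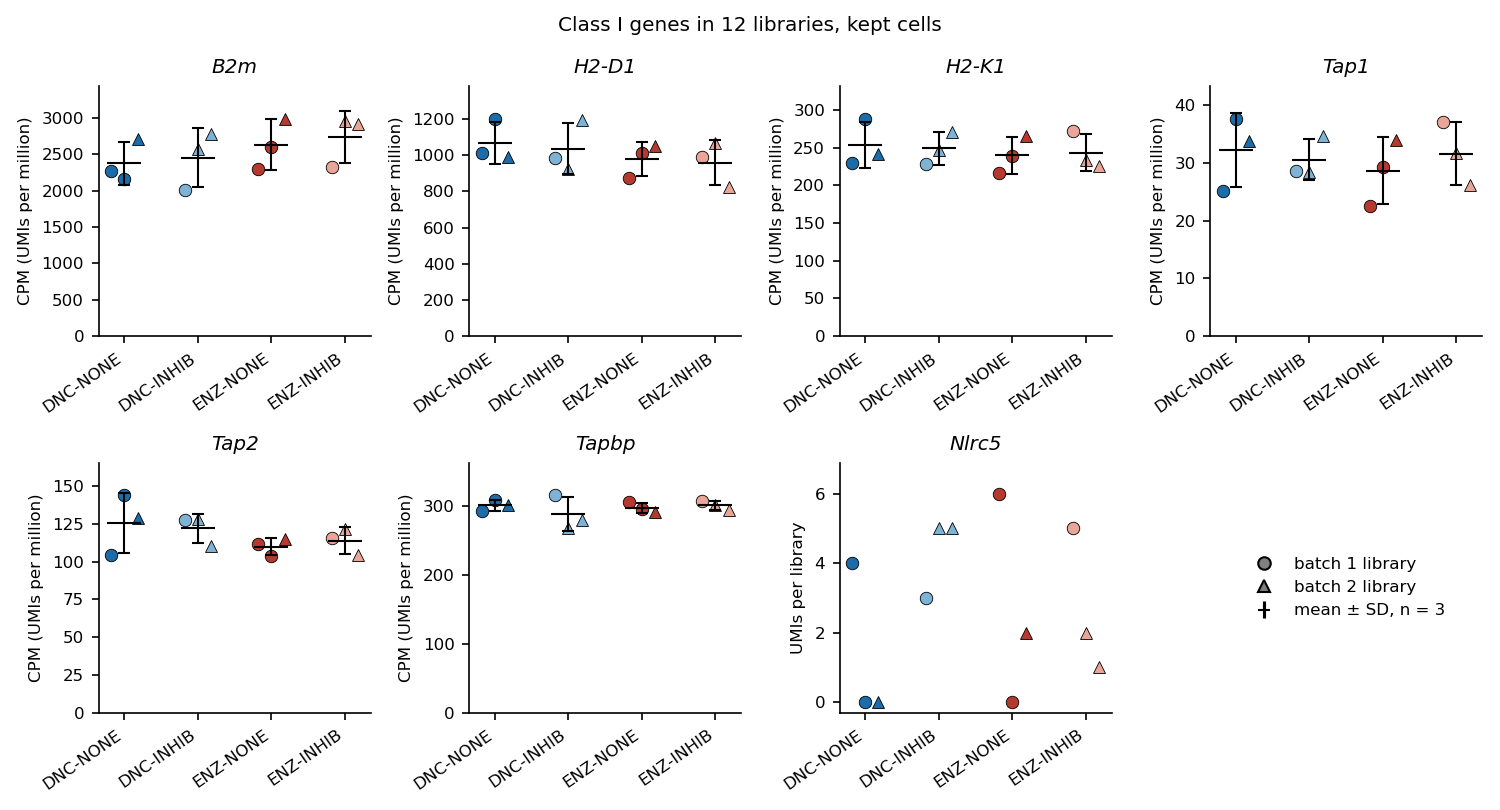
Level of each of the 7 genes in the 12 libraries, grouped by preparation on the x axis, in CPM over kept cells (for Nlrc5, UMIs per library). Each point is 1 library, circles for batch 1 and triangles for batch 2, with the mean ± SD of 3 libraries as bars. Preparations overlap for every gene, and triangles lie above circles within every preparation for B2m.

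The 36 tests of 6 genes in 6 comparisons were fitted without batch. Of these, 0 were called and 0 had an unadjusted p below 0.05, by edgeR or by DESeq2. A call required an adjusted p below 0.05 and an absolute log2 fold change above 0.58, the study's own limits. Over all 9882 genes tested, the percentage called was 0.465 in ENZ-NONE against DNC-NONE, 0.293 in ENZ-NONE against ENZ-INHIB and 0.739 in ENZ-NONE against DNC-INHIB. It was 0 in DNC-NONE against DNC-INHIB (436 genes at an unadjusted p below 0.05, and 1 gene called by DESeq2), 0.202 in ENZ-INHIB against DNC-INHIB and 0.172 in ENZ-INHIB against DNC-NONE. A count of 0 among 6 genes is therefore also what these low percentages would give. Log2 fold changes of the 6 genes ran from -0.14 to 0.21 with standard errors of 0.084 to 0.19, and all 36 intervals, from -0.46 at the lowest bound to 0.57 at the highest, stayed inside the 0.58 limit. Comparisons that share a preparation share its libraries and are not independent.

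Other genes of the pathway gave the same count. Of 8 tested non-classical class I genes, 5 genes of the immunoproteasome and its activator, 6 of peptide loading and trimming in the endoplasmic reticulum, 14 regulators, 6 of class II presentation and 21 other interferon-stimulated genes, 0 were called in any of the 6 comparisons. Tests with an unadjusted p below 0.05 were counted over the 6 comparisons by edgeR. In list order they numbered 3 of 48, 0 of 30, 8 of 36, 9 of 84, 5 of 36 and 13 of 126. Over all 9882 genes, 436 to 1026 per comparison had such a p. Against DNC-NONE, the median log2 fold change of class II genes was -0.64 in ENZ-NONE and -0.70 in ENZ-INHIB. For the other interferon-stimulated genes it was -0.35 and -0.47. In the remaining comparisons the medians of both lists ran from -0.22 to 0.49. These medians were not tested, and they come from sums over all kept cells. Summed border macrophage markers were 320 to 609 CPM in DNC-NONE, 254 to 336 in ENZ-NONE and 247 to 340 in ENZ-INHIB. Dendritic cell markers were 54.9 to 73.5, 6.51 to 36.6 and 17.5 to 42.6 CPM in the same order. H2-Eb1, H2-Aa and Cd74 were among the leading genes of the border macrophage-like cluster. The part of cell mix in the class II medians was not tested.

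B2m did differ between the 2 batches that the labels give, each of 6 libraries with all 4 preparations in both. Its level was 2275 ± 198 CPM in batch 1 (range 2007 to 2603) and 2824 ± 163 CPM in batch 2 (2575 to 2990.3), so that the batches met only at their edges. In the fit with preparation and batch as terms, B2m was higher in batch 2 (log2 fold change 0.38, SE 0.045, edgeR adjusted p = 4.01e-06), which is under the size limit for a call, and 0.233% of all genes were called in this comparison. No other gene of the set reached an adjusted p below 0.05 between batches. Within batch 1 the B2m means were 2210.4 CPM in DNC-NONE (2 libraries), 2007 in DNC-INHIB (1), 2447 in ENZ-NONE (2) and 2327 in ENZ-INHIB (1). Within batch 2 they were 2713 CPM (1), 2678 (2), 2990.3 (1) and 2943 (2) in the same order. Both enzymatic preparations thus lay above both Dounce preparations in each batch, but with batch in the fit the B2m difference of ENZ-NONE against DNC-INHIB was 0.27 on the log2 scale (adjusted p = 0.0142), again below the size limit.

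Among the 15 pairs of the 6 genes, the levels of H2-K1 and Tap1 varied most closely together over the 12 libraries, given here as a description. Their log2 CPM had a Pearson r of 0.891 and a Spearman rho of 0.895. The r was 0.831 without the 2 libraries farthest from the median, 0.958 within batch 1, 0.729 within batch 2 and 0.851 over microglia-like cells alone. H2-D1 followed with H2-K1 (r = 0.739) and with Tap1 (r = 0.718), and over microglia-like cells alone these were 0.566 and 0.576. B2m stood apart from the heavy chains, with r = -0.047 against H2-D1 and 0.019 against H2-K1. The points of each pair share a library, its depth and its mix of cell types. The 5 other genes whose profile over the 12 libraries was most like the mean of the set were Elp6 (r = 0.952), Epop (0.880), Xndc1 (0.858), Fancf (0.851) and Lrrfip2 (0.844), which had 97 to 429 UMIs in all and are the highest among all genes tested, most of them sparsely counted.

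Interferon-responsive cells were those with UMIs of at least 3 of the 5 genes Ifit1, Ifit3, Isg15, Irf7 and Oasl2, and none of the class I genes took part in this rule. They were 74 of the 18289 microglia-like cells (0.405%), between 1 and 15 per library, and accounted for 0.298% ± 0.150 of microglia-like cells in DNC-NONE, 0.486% ± 0.196 in DNC-INHIB, 0.376% ± 0.232 in ENZ-NONE and 0.411% ± 0.182 in ENZ-INHIB (SD, n = 3). Their median depth was 1411 UMIs against 1333 in the other cells, and their median mitochondrial share was 1.00% against 0.98%. The 9 libraries with at least 5 such cells entered the test, which compared the summed UMIs of both classes within each library (66 interferon-responsive cells, 99389 UMIs).

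Here 5 of the 6 tested genes, B2m, H2-D1, H2-K1, Tap1 and Tapbp, were called higher in interferon-responsive microglia with TMM scaling factors (trimmed means of gene ratios between libraries) taken from abundant genes, and Tap2 did not pass the test. The calls depend on that scaling, which was chosen after the data were seen. With TMM factors over all tested genes, which had been planned, Tap1 alone was called (1.87 on the log2 scale, edgeR adjusted p = 0.000262), while H2-D1 (0.27, 0.305), H2-K1 (0.48, 0.176) and Tapbp (0.09, 0.800) were not called and B2m turned to -0.19 (0.415). Under the planned factors the median of all genes was -0.87 and 1211 genes were called, 1146 of them lower. With library totals alone, and no scaling factors, the same 5 genes were called, from 0.66 for B2m to 2.63 for Tap1, and the median of all genes was -0.11. Of the 6682 genes tested, 1.68% were called higher and 0.15% were called lower. The 112 genes called higher include the 5 genes of the rule. The median log2 fold change of the 6 genes was 1.12, against -0.004 over all genes tested.

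H2-D1, a classical heavy chain, had the smallest adjusted p of the set. Its level in interferon-responsive cells was 1476 and 1806 CPM in DNC-NONE replicates 1 and 3, 1265, 1612 and 2652 CPM in DNC-INHIB replicates 4, 5 and 6, 4098 and 777 CPM in ENZ-NONE replicates 5 and 6, and 3053 and 1159 CPM in ENZ-INHIB replicates 1 and 3. In the other cells of those libraries it was 771 to 1073 CPM. In all, 8 of the 9 libraries were higher in the interferon-responsive class, and ENZ-NONE replicate 6, with 6 UMIs, was lower. The log2 fold change was 1.23 (SE 0.15, edgeR adjusted p = 1.55e-13), and an exact paired permutation of the 9 CPM differences gave p = 0.00781 two-sided, where 0.00391 is the smallest possible.

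H2-K1 behaved alike at lower counts. It was at 114 and 903 CPM in DNC-NONE replicates 1 and 3, 281, 627 and 585 CPM in DNC-INHIB replicates 4, 5 and 6, 1051 and 647 CPM in ENZ-NONE replicates 5 and 6, and 763 and 166 CPM in ENZ-INHIB replicates 1 and 3, on 1 to 15 UMIs each. The other cells held 214 to 257 CPM, so 7 of 9 libraries were higher. The log2 fold change was 1.38 (SE 0.26, edgeR adjusted p = 1.20e-05), and the exact paired permutation p was 0.0234.

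B2m had the smallest called difference and the most UMIs behind it. Levels were 2838 and 4334 CPM in DNC-NONE replicates 1 and 3, 1686, 3403 and 6045 CPM in DNC-INHIB replicates 4, 5 and 6, 6095 and 3236 CPM in ENZ-NONE replicates 5 and 6, and 4071 and 4634 CPM in ENZ-INHIB replicates 1 and 3. Against 2004 to 2978 CPM in the other cells, 8 of 9 libraries were higher, all but DNC-INHIB replicate 4. The log2 fold change was 0.78 (SE 0.12, edgeR adjusted p = 5.38e-09; exact paired permutation p = 0.0117), and -0.19 with the TMM factors over all tested genes.

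Tap1, which supplies 1 chain of the peptide transporter, had the largest fold change of the 6 tested genes on the fewest UMIs. Its level was 0 CPM in DNC-NONE replicates 1 and 3, 141, 179 and 273 CPM in DNC-INHIB replicates 4, 5 and 6, 210.2 and 259 CPM in ENZ-NONE replicates 5 and 6, and 339 and 0 CPM in ENZ-INHIB replicates 1 and 3, against 22.7 to 35.8 CPM in the other cells. The 6 libraries with any UMI of Tap1 in this class all lay above the other cells. The 3 at 0 held 5 to 7 interferon-responsive cells each, and a count of 0 there still allows a level of up to 341 CPM in DNC-NONE replicate 1, 542 CPM in DNC-NONE replicate 3 and 248 CPM in ENZ-INHIB replicate 3. It was higher by 2.74 on the log2 scale (SE 0.43, 6.66-fold in fitted terms, edgeR adjusted p = 1.35e-07; exact paired permutation p = 0.0312). Over all 74 cells the class had 21 Tap1 UMIs, 188 CPM against 28.3 CPM in the other cells.

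Tapbp and Tap2 had similar fold changes and fell on different sides of the test. Tapbp was at 227 and 1264 CPM in DNC-NONE replicates 1 and 3, 562, 716 and 546 CPM in DNC-INHIB replicates 4, 5 and 6, 315 and 777 CPM in ENZ-NONE replicates 5 and 6, and 339 and 414 CPM in ENZ-INHIB replicates 1 and 3. The other cells held 266 to 316 CPM, and 8 of 9 libraries were higher. The log2 fold change of Tapbp was 1.00 (SE 0.25, edgeR adjusted p = 0.00586; exact paired permutation p = 0.0195). This call was lost with TMM over all tested genes (adjusted p = 0.800), in DESeq2 (0.0925), after thinning (0.425) and without DNC-NONE replicate 3 (0.0828), DNC-INHIB replicate 5 (0.0606) or DNC-INHIB replicate 6 (0.0634). Tap2, the partner chain of Tap1, had 215 CPM against 117 CPM over all cells, with 6 of 9 libraries higher and 2 at 0. Its log2 fold change was 1.00 with an interval of 0.21 to 1.78 (SE 0.40, edgeR adjusted p = 0.313; exact paired permutation p = 0.180). The interval of Tap2 includes the values of Tapbp, B2m, H2-D1 and H2-K1.

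Nlrc5 could not be tested. It had 3 UMIs in the 74 interferon-responsive cells and 23 in the 18215 others, 26.9 CPM (95% Poisson interval 5.54 to 78.6) against 0.894 CPM (0.567 to 1.34). The 3 UMIs came from 3 cells, and 9 of the 12 libraries had none in this class.

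**Figure D2:**
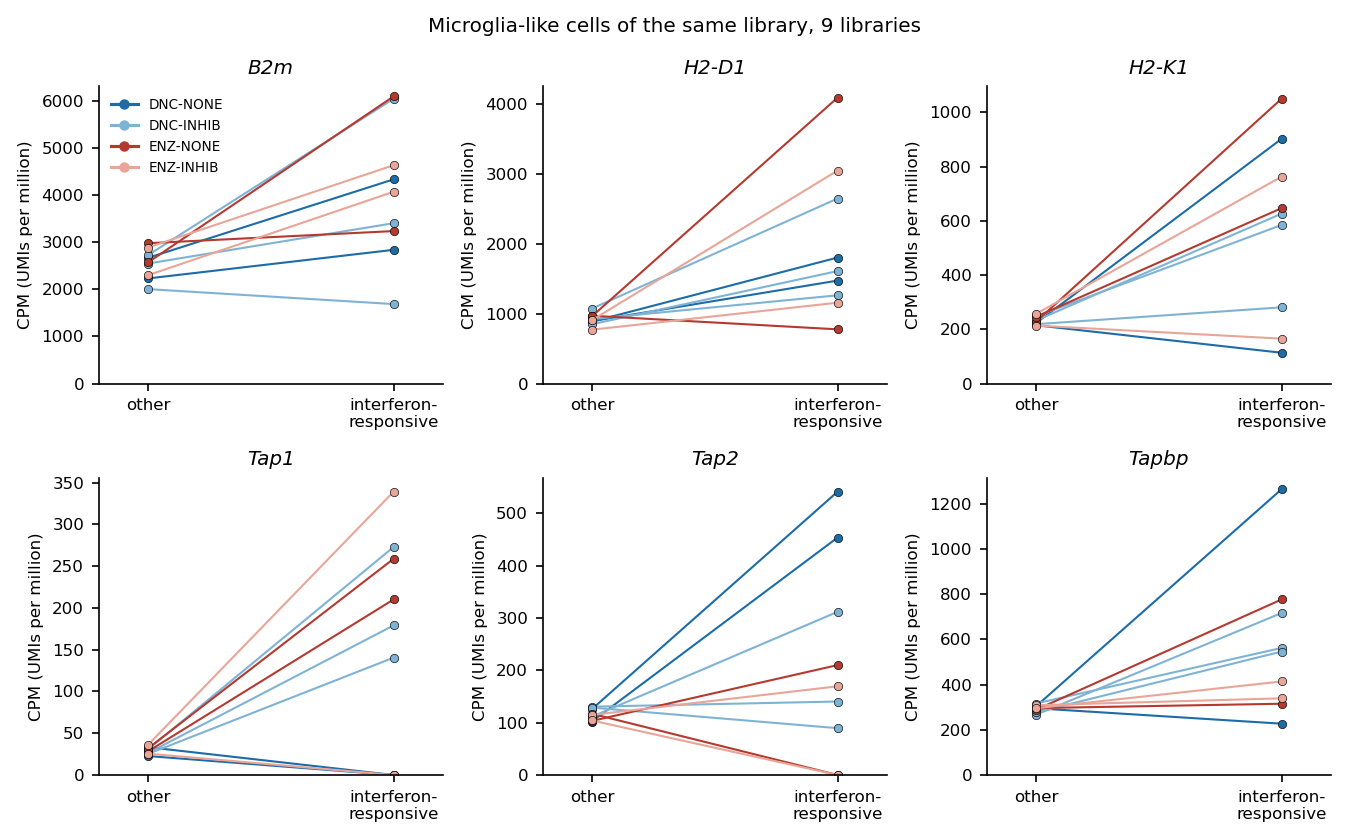
Level of 6 class I genes in CPM (y axis) in the other microglia-like cells and in the interferon-responsive cells (x axis) of the same library. Each line is 1 of 9 libraries, coloured by preparation. For B2m, H2-D1 and Tapbp 8 of 9 lines go up, for H2-K1 7, and for Tap1 and Tap2 6, with lines that end at 0 for the last pair.

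Shares of cells with a UMI at equal depth were also higher in the interferon-responsive class for all 6 genes. After thinning to 1000 UMIs, H2-D1 was detected in 74.3% of interferon-responsive cells (95% exact interval 62.8% to 83.8%) and 52.4% of the others, H2-K1 in 39.2% (28.0% to 51.2%) and 19.1%, and Tap1 in 14.9% (7.66% to 25.0%) and 2.66%. Tapbp was detected in 44.6% (33.0% to 56.6%) and 25.2%, and Tap2 in 20.3% (11.8% to 31.2%) and 11.2%. B2m, which is near saturation, was detected in 93.2% (84.9% to 97.8%) and 88.3%, so its interval includes the share of the other cells. Part of these UMIs may be free RNA caught in droplets. Since nearly every nucleated cell expresses class I genes, the sort offers no negative cell type from which to estimate it.

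Levels also differed with the number of rule genes detected, given as a description. Over cells with 0, 1, 2, 3, 4 and 5 of the rule genes (17607, 529, 79, 37, 23 and 14 cells), pooled H2-D1 was 907, 1385, 1852, 1756, 1967 and 3353 CPM. B2m was 2539, 3138, 4121, 3419, 4591 and 5821 CPM over the same cells. Both were thus already above the cells without rule genes at 1 or 2 genes detected, and the cells just outside the threshold (2 genes) held as much as those just inside it (3 genes). Tap1 was different in shape, with 27.5, 49.4 and 41.0 CPM at 0, 1 and 2 genes and 149, 273 and 139.7 CPM at 3, 4 and 5, on 3 to 10 UMIs in the last 3 classes.

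**Figure D3:**
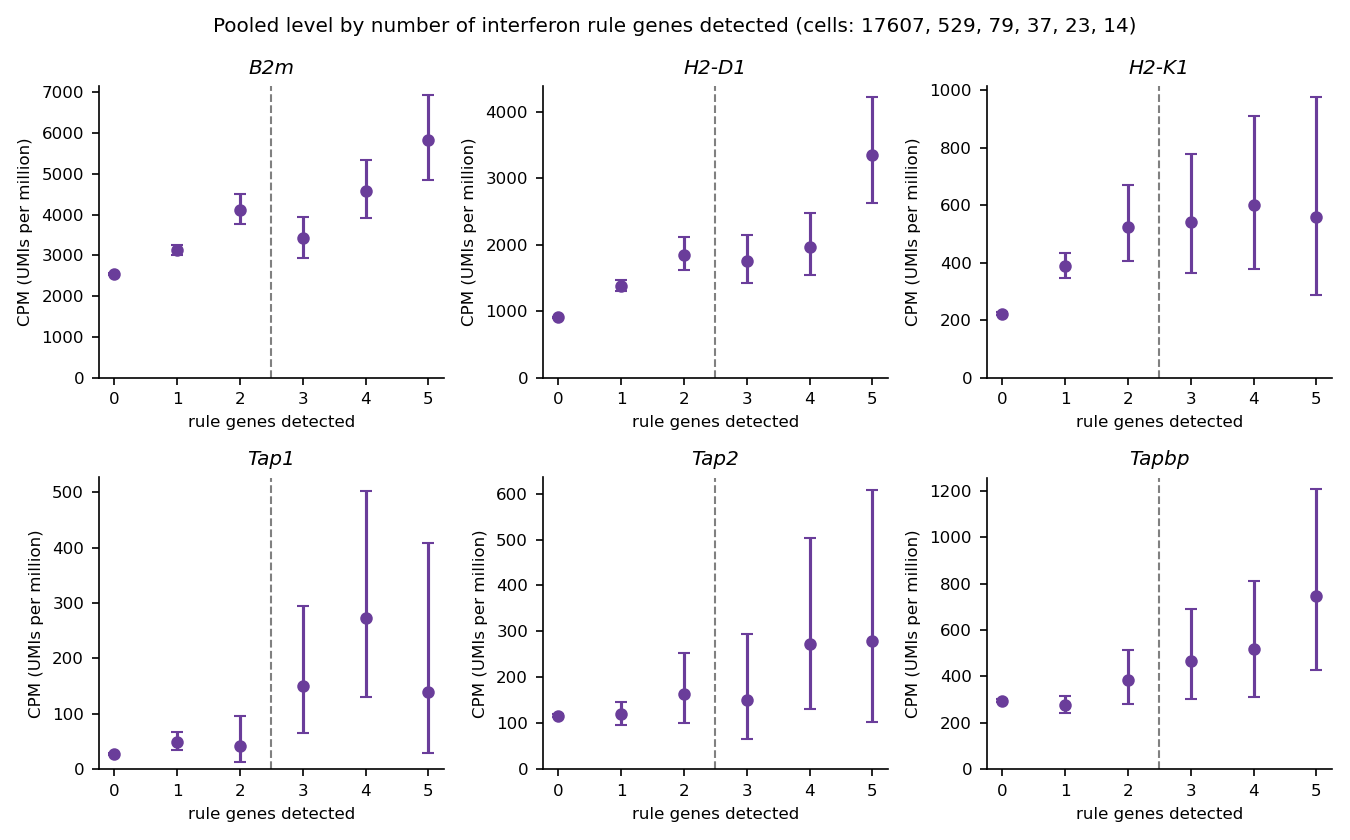
Pooled level in CPM (y axis) of 6 class I genes in microglia-like cells by the number of interferon rule genes detected (x axis), with 95% Poisson intervals that cover counting error only. The dashed line marks the threshold between 2 and 3 genes. H2-D1 and B2m are higher from 1 gene onwards, while Tap1 stays below 50 CPM up to 2 genes.

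With the factors from abundant genes, the class I genes were among the modest changes of these cells. Ranked by log2 fold change among the 112 genes called higher, Tap1 was 39th, H2-K1 96th, H2-D1 102nd, Tapbp 105th and B2m 108th. The 3 genes outside the rule with the largest fold changes were Ifit3b (9.17), Rsad2 (8.63), which encodes viperin, and Slfn5 (6.48). Of the 16 other interferon-stimulated genes tested, 15 were called higher, with Gbp3 the exception at 1.70 (edgeR adjusted p = 0.501). Of the 28 listed genes in the count matrices, only these 16 passed the count filter. A gene could pass it on the interferon-responsive sums alone, and the class itself was picked on genes of the same program. The share called and the largest fold changes are therefore a description only. Among regulators, the signal transducer Stat2 (3.44, edgeR adjusted p = 7.41e-14) was called higher, and 11 of 13 did not pass the test, including Irf1 (1.32, 0.514) and Irf9 (1.14, 0.357).

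Neighbouring steps of the pathway were called only in part. Both subunits of the proteasome activator PA28, Psme1 (1.40, adjusted p = 0.00515) and Psme2 (1.65, 2.32e-06), were higher, while the catalytic immunoproteasome genes Psmb8 (0.64), Psmb9 (0.92) and Psmb10 (1.11) did not pass. Of 5 non-classical class I genes, H2-T23, which encodes Qa-1, was higher (1.67, edgeR adjusted p = 0.000233), and it belongs to a multigene family, so its counts are uncertain, although its shared sequence was not measured. Of the 6 genes for chaperones and peptide trimming in the endoplasmic reticulum, 0 were called, and 0 had an unadjusted p below 0.05 by edgeR or DESeq2, with Calr at -0.24 and Erap1 at 1.05. Of the 4 tested class II genes, 0 were called, and 1 had an unadjusted p below 0.05 by edgeR and 0 by DESeq2. The median log2 fold changes of these lists were 1.11 for the immunoproteasome, 0.58 for the non-classical genes, 0.13 for the loading genes and 0.66 for class II, against -0.004 over all genes tested.

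Markers of other cell types were checked in the same 9 libraries. All 10 microglia markers were detected in the interferon-responsive class, at a summed level of 27638 to 34041 CPM against 35561 to 40625 CPM in the other cells, and Fcrls (-0.69) and Gpr34 (-0.58) were called lower. Of 10 border macrophage markers 2 were detected, with Mrc1, Pf4, Lyve1 and Cd163 at 0, and the summed level was 0 to 448 CPM against 186 to 242 CPM. Of 9 monocyte markers 3 were detected on 6 UMIs, with Ly6c2 and Chil3 at 0, and the pooled level was 60.4 CPM against 7.53 CPM, a part in the result that was not tested. Of 7 dendritic cell markers 1 was detected.

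The interferon difference was also compared between preparations. By preparation, the fitted log2 fold change of H2-D1 was 1.13 in DNC-NONE (2 libraries), 1.14 in DNC-INHIB (3), 1.45 in ENZ-NONE (2) and 1.28 in ENZ-INHIB (2). For B2m it was 0.80, 0.74, 0.89 and 0.75 in the same order, and for H2-K1 1.22, 1.31, 2.01 and 0.96. Tapbp was at 1.36, 1.21, 0.98 and 0.32, and Tap2 ran from 2.40 in DNC-NONE through 1.05 and 0.22 to -0.39 in ENZ-INHIB. The Tap2 values rest on 0 to 8 UMIs per library in the interferon-responsive class, with 0 in ENZ-NONE replicate 6 and ENZ-INHIB replicate 3. Tap1 was at 3.11 in DNC-INHIB, 3.10 in ENZ-NONE and 2.44 in ENZ-INHIB, and no fold is given for DNC-NONE, where both libraries had 0 Tap1 UMIs in the interferon-responsive class. In the F test of a difference between preparations 0 of the 6 genes were called, against 0 of all 6682 genes, and 0 had an unadjusted p below 0.05, with the lowest at 0.137 for Tap2 (adjusted p = 0.992). With 2 or 3 libraries per preparation this does not show that the 4 preparations respond alike.

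**Figure D4:**
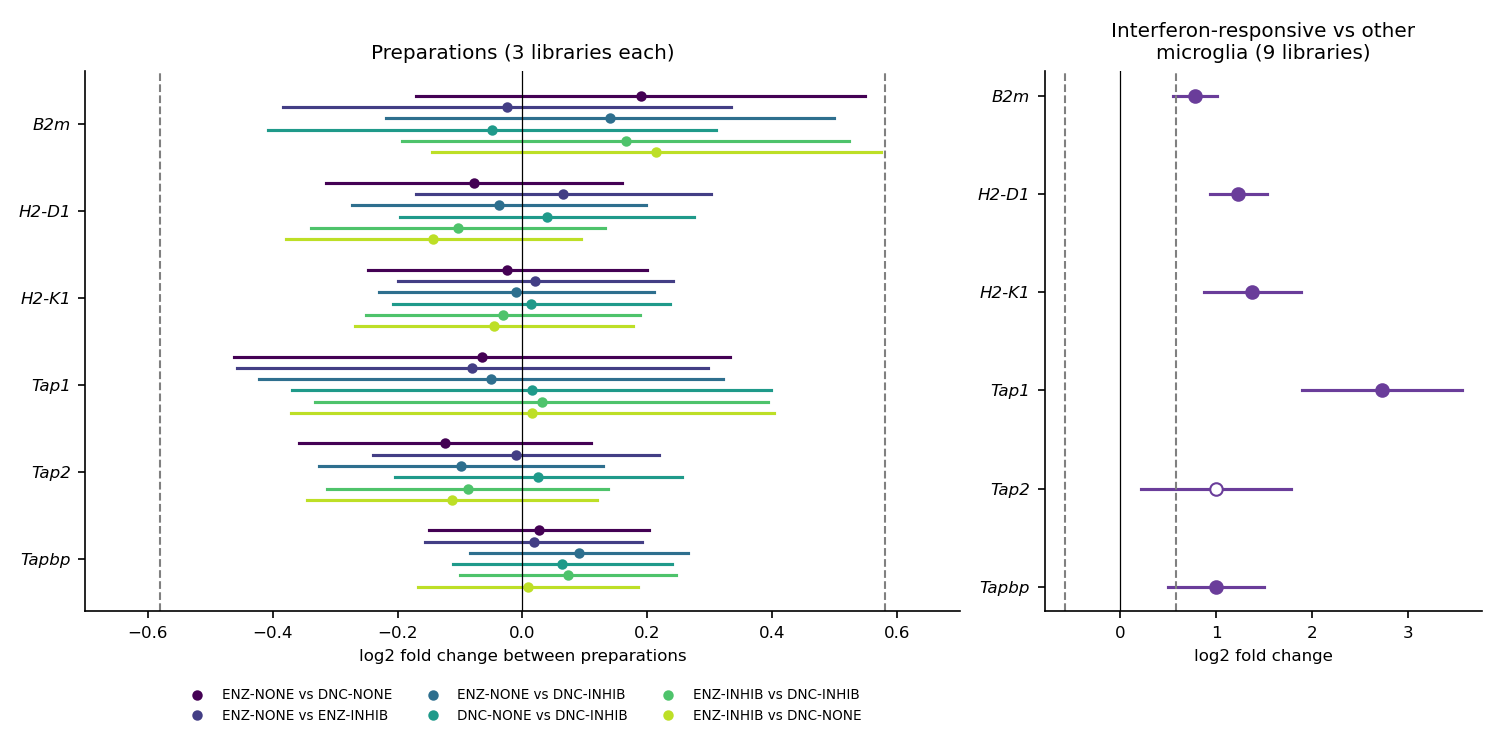
Log2 fold changes (x axis) of 6 class I genes with 95% intervals from the edgeR fits, for the 6 comparisons of preparations (left) and for interferon-responsive against other microglia (right). Dashed lines mark the 0.58 limit, and the open circle marks Tap2, which was not called. All 36 intervals on the left lie inside the limits, and the right-hand points, scaled on abundant genes, lie between 0.78 and 2.74, where TMM over all tested genes turns B2m to -0.19 and leaves Tap1 alone called.

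Class I levels also varied between the clusters of kept cells. The clusters were built from counts of the same cells, with the class I genes and the listed interferon-stimulated genes left out. These values are a description with no test. Over the 8 microglia-like clusters, cluster 8, led by Ifit3, Ifit2 and Ifit3b and holding 48 of the 74 interferon-responsive cells among its 175, had the highest level of all 7 genes. It held 4347 CPM of B2m against 2252 CPM in the lowest cluster, 2271 against 787 CPM of H2-D1, and 115 against 25.9 CPM of Tap1. Its 127 cells outside the interferon-responsive class were still high, with 4204 CPM of B2m and 2176 CPM of H2-D1. Cluster 6, led by Lpl and Cst7 (445 cells), had 3805 CPM of B2m and 1855 CPM of H2-D1 but only 31.9 CPM of Tap1 and the lowest Tap2 level. Cluster 5, led by the immediate early genes Fos, Dusp1 and Egr1, held 1094 CPM of H2-D1 and 316 CPM of H2-K1. ENZ-NONE supplied 542 of its 550 cells, with 389 from replicate 6, 83 from replicate 4 and 70 from replicate 5.

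In border macrophage-like cells the heavy chains and Tap1 were at higher pooled levels than in microglia-like cells, while Tap2 and Tapbp were close. The 312 border macrophage-like cells held 3198 CPM of H2-D1 against 931 CPM in microglia-like cells, 751 against 229.7 CPM of H2-K1 and 3358 against 2572 CPM of B2m. Library by library, H2-D1 in border macrophage-like cells was 2141 to 4715 CPM and in microglia-like cells 773 to 1086 CPM, without overlap in 12 libraries. Tap1, on 39 UMIs, was at 73.7 CPM (95% Poisson interval 52.4 to 101) against 29.0 CPM (26.9 to 31.1). Tap2 was at 100.2 against 117 CPM and Tapbp at 344 against 295 CPM. Nlrc5 had 5 UMIs there, 9.46 CPM (95% Poisson interval 3.07 to 22.1) against 1.01 CPM (0.658 to 1.47). The 126 monocyte-like cells held 2957 CPM of H2-D1, 448 CPM of H2-K1, 84.8 CPM of Tap2 and 182 CPM of Tapbp. Tap1 was at 60.6 CPM there, on 15 UMIs. Neutrophil markers were high in this cluster as well, at a summed 46878 CPM beside 9606 CPM of monocyte markers, with S100a8 the leading gene, so it may hold more than 1 cell type.

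**Figure D5:**
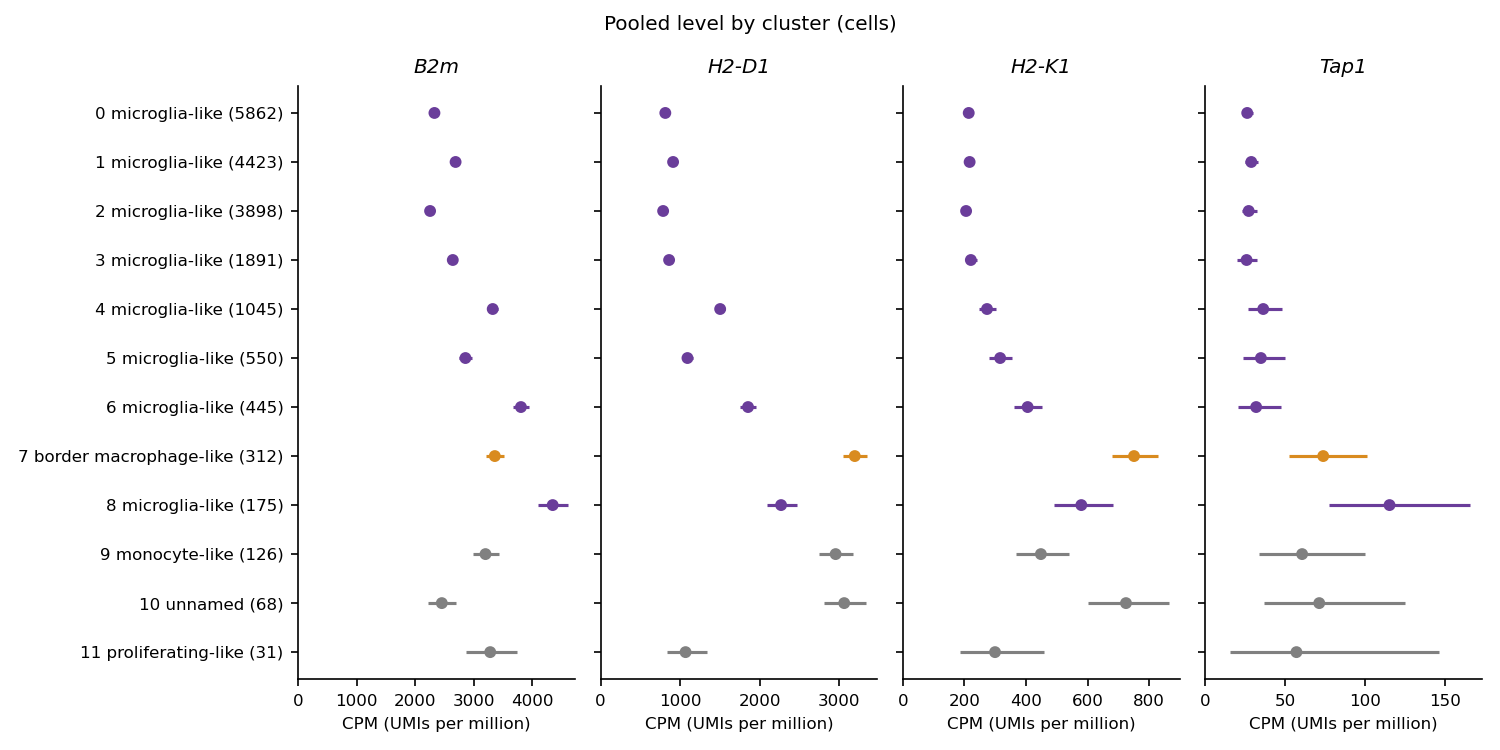
Pooled level in CPM (x axes) of B2m, H2-D1, H2-K1 and Tap1 in 12 of the 13 clusters of kept cells (rows, with the number of cells; a cluster of 1 cell is left out), with 95% Poisson intervals that cover counting error only. Purple marks microglia-like clusters, orange border macrophage-like cells and grey the remaining clusters shown. Cluster 8 is the highest microglia-like cluster in each panel, and H2-D1 is higher still, at 3198 CPM, in border macrophage-like cells.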

How the data were processed

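Live CD45- and CD11b-positive myeloid cells of 12 mouse brains were profiled with a 10X Genomics 3' kit. The values the authors deposited are raw UMI counts per gene and cell, 1 matrix per animal, and per the labels the submitters' processing notes name bcl2fastq, Cell Ranger 3.0.0, Seurat and the mm10 (GRCm38) build. UMIs hold no PCR copies, and the printed intervals and floors (3 counts) cover counting error only.

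The filter on cells required 500 genes and 1000 UMIs or more, with no more than 10% of UMIs from mitochondrial genes. Cells with UMIs of other brain cell types were removed as doublets (3 cells, 0.0159%), a rule that caught too few to have worked as a doublet caller. Kept cells were clustered (Leiden, resolution 1, 20 neighbours, 30 components, 2000 variable genes). Class I genes and listed interferon-stimulated genes took no part in this step, nor did genes of histones, ribosomal proteins or the mitochondrial genome. Clusters were named from marker lists, so names can differ from those of the study.

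UMIs were summed per library and tested with edgeR 4.0.16 (R 4.3.3, quasi-likelihood, filterByExpr), with Benjamini-Hochberg adjustment over all genes tested and calls at adjusted p below 0.05 and absolute log2 fold change above 0.58. One fit over the 12 libraries (8 residual degrees of freedom) served all 6 comparisons of preparations. Interferon-responsive and other microglia-like cells were summed separately per library, with library as a block. For these sparse sums TMM factors came from genes of at least 500 CPM, in place of the factors over all tested genes that had been planned: tested on simulated sums, the planned factors called many unchanged genes and the abundant-gene factors few. This change was made after the data were seen. Alternatives were DESeq2 1.42.0, its size factors, other filters, cells and depths, batch as a covariate, replicate blocks and each library left out.

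Each library is 1 animal, and counts of replicates differed by more than sampling noise (chi-square per degree of freedom 1.55 to 6.06 over 12 pairs). The 7 genes and all gene lists were chosen with earlier results of these data known. All 7 genes are named throughout. Genes of a pathway list are named where called, up to 4 per list by fold change, together with the 3 genes of largest fold change outside the rule and the 5 most like the mean of the set; other pathway genes and markers were named after their values were seen. The values of 1 regulator are not reported here.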

Additional observations from a re-analysis of the deposited data

How the results depend on the processing

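In the comparisons of preparations, 0 class I genes were called under all 92 alternatives. Over the 552 recomputed log2 fold changes, the range was -0.28 to 0.33, 84 had the other sign with no call in either fit, and 1 reached an adjusted p below 0.05, B2m with batch as a covariate, as given above. Class I genes took 0.425% of UMIs on average over 12 libraries (SD 0.035), 0.413% in microglia-like cells alone and 0.426% over all deposited barcodes.

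In the interferon comparison, 111 of 120 recomputed fold changes kept their direction and side of the threshold, 8 were no longer called and 1 reversed. The planned TMM factors over all tested genes, a setting kept after the data were seen, left 1 class I gene called (Tap1, 1.87). Under them the median of all genes was -0.87 and 1211 genes were called, 65 higher and 1146 lower, against 122 otherwise. B2m was -0.19, H2-D1 0.27, H2-K1 0.48 and Tapbp 0.09 under these factors, each above that median. Leaving out the 9 libraries in turn left 4 or 5 genes called, always without Tap2, and B2m stayed between 0.70 and 0.86, H2-D1 between 1.07 and 1.35, H2-K1 between 1.23 and 1.53 and Tap1 between 2.49 and 2.93. Over the 19 alternatives other than these TMM factors, the highest adjusted p was 0.0136 for B2m, 0.000796 for H2-D1, 0.0277 for H2-K1 and 0.00179 for Tap1. A rule of at least 4 of the 5 genes could not be fitted, since 1 library held enough cells. The effect by preparation gave 0 class I genes under its 12 alternatives.

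Of all genes, calls over the alternatives ran from 29 to 101 in ENZ-NONE against DNC-NONE (46 as reported), 14 to 54 against ENZ-INHIB (29), and 46 to 137 against DNC-INHIB (73). They ran from 0 to 18 in DNC-NONE against DNC-INHIB (0), 5 to 66 in ENZ-INHIB against DNC-INHIB (20), and 1 to 102 in ENZ-INHIB against DNC-NONE (17), in each case the highest without a filter on low counts. The interferon comparison (122) had 1211 under TMM over all tested genes, 71 after thinning and 89 to 183 under the other alternatives.

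Libraries of the same replicate number did not deviate together: the correlations of their deviations were 0.083, -0.038 and 0.139 in ENZ-NONE against DNC-INHIB, and -0.141, -0.067 and -0.018 in ENZ-INHIB against DNC-NONE. With the replicate block, 0 class I genes were called in both, and calls over all genes were 104 against 73 and 90 against 17. Without the library block (no replicate block), 5 class I genes were called in the interferon comparison. Depth limits Nlrc5, with 33 UMIs, and Tap1, with 18 UMIs in the tested interferon-responsive cells.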
